A study of Homo sapiens with 4 samples.

Results

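The genes described here are 33 genes listed as targets of the tumour suppressor p53, followed in MDA-MB-231 cells after knockdown of AURKA. MDA-MB-231 is a triple-negative breast cancer line in which p53 is mutant. The 33 genes were taken by gene name from a list of p53 targets. Whether each gene is a direct target was not tested. The list covers feedback on p53, death receptors and apoptosis, arrest and stress, DNA repair, and metabolism. All 33 were found among the 20146 genes in the deposited tables, and 32 of them were among the 12138 genes tested. The knockdown group had 2 libraries of MDA-MB-231 cells labelled AURKA KD, called shA in the titles. The control group had 2 libraries of the same line, named shC in the titles and mock-transfected in the design text, so whether the control cells carried a hairpin is not stated. The labels do not say how many hairpins were used or how long after transfection RNA was taken. Both groups share the line and its growth medium, Leibovitz's L-15 with serum, and neither was given a DNA-damaging agent in the labels. The question put by the series title is which genes depend on AURKA for their transcription.

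p53 is a transcription factor that, when not mutant, is held low by the ubiquitin ligase MDM2 and its relative MDM4. After DNA damage or other stress it accumulates, binds paired half-sites near its target genes and raises genes that stop the cell cycle, repair DNA or trigger apoptosis, MDM2 among them. Many p53 targets also have basal transcription and other regulators, so their RNA is present in cells without functional p53. Aurora kinase A, the product of AURKA, is a mitotic kinase that has been reported to phosphorylate p53.

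The promoters show where some of these genes carry p53 half-sites close to their start. RefSeq promoter windows of build GRCh38.p14, from 250 bases before to 50 bases after the start, were matched to 26 of the 33 genes. The 7 genes with no matched window were GADD45A, PHLDA3, RRM2B, TNFRSF10A, TNFRSF10B, TNFRSF10C and TP53INP1. The motif searched was the 10-base consensus p53 half-site, which reads the same on both strands. It was found in the windows of 7 of the 26 genes (26.9%), against 2202 of 27305 gene symbols in the whole promoter table (8.06%). The list was taken by gene name, but targets of p53 are genes near which it binds such sites. The higher share therefore describes the list and is no independent support for it. The windows that hold it are shown here, with the half-site in capitals and each line 5′ to 3′ on the strand of the gene.
DDB2, chr11:47214954-47215003, plus strand: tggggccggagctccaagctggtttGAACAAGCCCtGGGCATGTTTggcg
EI24, chr11:125569442-125569501, plus strand: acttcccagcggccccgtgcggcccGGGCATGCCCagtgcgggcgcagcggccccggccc
FDXR, chr17:74872971-74873030, minus strand: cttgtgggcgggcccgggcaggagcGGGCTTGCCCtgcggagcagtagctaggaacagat
AEN, chr15:88621281-88621340, plus strand: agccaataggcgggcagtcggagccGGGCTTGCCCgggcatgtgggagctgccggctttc
SESN1, chr6:109009003-109009062, minus strand: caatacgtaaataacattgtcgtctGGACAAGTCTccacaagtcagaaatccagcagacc
FAS, chr10:88991284-88991343, plus strand: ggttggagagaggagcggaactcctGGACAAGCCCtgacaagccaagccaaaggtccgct
PLK2, chr5:58460184-58460243, minus strand: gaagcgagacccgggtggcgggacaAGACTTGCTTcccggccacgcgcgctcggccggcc

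DDB2 was the one gene of the 26 with 2 half-sites separated by at most 13 bases, the spacing of a full p53 site, and 10 of 27305 symbols in the table had such a pair (0.0366%). Its half-sites begin 6 and 17 bases after the start, with 1 base between them. The half-sites of EI24 and FDXR begin 10 and 11 bases before the start, that of AEN 34 bases before it, and those of SESN1, FAS and PLK2 49, 122 and 132 bases before it. The windows of SFN, TP53I3, CYFIP2 and MDM2 held no match, which says only that these letters are not in these windows. A match is a description of the sequence and not a measurement of binding.

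AURKA (ENSG00000087586, chromosome 20, 54944445 to 54967393, GRCh37) checks the group labels. It was at 22.3 and 23.7 FPKM (fragments per kilobase of transcript, scaled to library depth) in the knockdown libraries, against 124.1 and 99.1 FPKM in the controls. The knockdown mean was 4.86-fold lower, with a log2 difference of -2.22 ± 0.15 (standard error). Its adjusted p was 0.082 in limma without the replicate number and 0.000627 with it. The replicate number was read as a quantification run, which no label states. The 2 libraries of a number share their transcript set and row order, and those of different numbers do not. Differences were therefore also computed within each replicate number and in a fit with the run as a term.

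Summed FPKM ran from 718978 to 761641 per library, and between 11739 and 12178 genes reached 1 FPKM. The files give no read totals, so the depth itself is unknown, but steps between low values put the knockdown library at 1.22 times the depth of its control in replicate 1 and 1.14 times in replicate 2. All 6 markers listed for this line (VIM, CD44, AXL, CAV1, MSN and EGFR) reached 1 FPKM, with summed levels of 2799.4 and 2687.2 FPKM in the knockdown and 3154.6 and 3008.8 FPKM in the controls, and ESR1, PGR and CDH1, which this line is known to lack, were under 0.3 FPKM. Of 8 luminal breast markers, which include those 3, 5 reached 1 FPKM, namely KRT19, ERBB2, FOXA1, EPCAM and GATA3. The 8 summed to 153.1 and 128.4 FPKM in the knockdown and 146.5 and 133.2 FPKM in the controls. KRT19 alone was at 122.4 and 102 FPKM in the knockdown and 117.8 and 104.6 FPKM in the controls. One of 5 leukocyte markers (CD68), 1 of 5 fibroblast markers (COL1A1) and none of the 3 endothelial markers found reached 1 FPKM in any library. One library stood apart. NF-kappaB targets summed to 801.1 FPKM in control 1, against 211.5 FPKM in control 2 and 309.2 and 242.6 FPKM in the knockdown libraries, and 17 of the 18 were highest in control 1. The largest differences of one sign in that list were those of IL1A (1.48 and 1.11 FPKM in the knockdown, 9.15 and 1.45 FPKM in the controls) and ICAM1 (6.45 and 3.37 FPKM in the knockdown, 25.6 and 4.38 FPKM in the controls). The value of every tested p53 target without control 1 is therefore given as well.

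As a group the p53 targets had a median difference close to that of all genes tested. Their summed level was 693.8 and 708.2 FPKM in the knockdown and 704.3 and 653.2 FPKM in the controls. The median log2 difference of the 32 tested genes was 0.02, beside 0.01 over all 12138, and 17 genes had a higher and 15 a lower mean in the knockdown. Without control 1 the median was 0.05, and without control 2 it was -0.12. In 13 genes both replicate numbers were higher in the knockdown, in 11 both were lower, and in 8 (25%) the signs were opposite, beside 33% of all genes tested. In these bulk libraries, fewer cells expressing a gene and less RNA per cell cannot be told apart.

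In limma without the run, 0 of the 32 genes passed an adjusted p of 0.05, and 0 of 12138 genes did so (0% of all genes tested, with 777 at an unadjusted p under 0.05). The adjusted p of the 32 ran from 0.537 to 0.999, and 4 of them (12.5%) had an unadjusted p under 0.05, beside 6.40% of all genes tested. With the run as a term, 9 of the 32 had an unadjusted p under 0.05, beside 22.1% of all genes tested. With the run as a term, 3 of the 32 genes (9.38%) passed, TP53I3, SFN and TNFRSF10A, all higher in the knockdown. With 4 libraries that fit leaves little of a gene's own spread to measure, so its p-values rest largely on spread pooled over genes. The share of all genes passing that fit was 3.52%, with 1.60% higher and 1.92% lower. No p53 target passed as lower. The smallest adjusted p among the other 29 genes was 0.057, for CYFIP2. The knockdown and control values did not overlap in 9 genes that were higher in the knockdown (28.1%, beside 19.4% of all genes tested) and in 5 that were lower (15.6%, beside 16.6%). The 9 were TP53I3, SFN, TNFRSF10A, DDB2, PLK2, PERP, TRIAP1, CCNG1 and SESN1, and the 5 were CYFIP2, GADD45A, XPC, GADD45B and MDM2. Every one of the 32 tested genes reached 1 FPKM in all 4 libraries. With 2 libraries against 2, the smallest p an exact permutation test can give for a single gene is 0.333, so no such test was run.

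**Figure D1:**
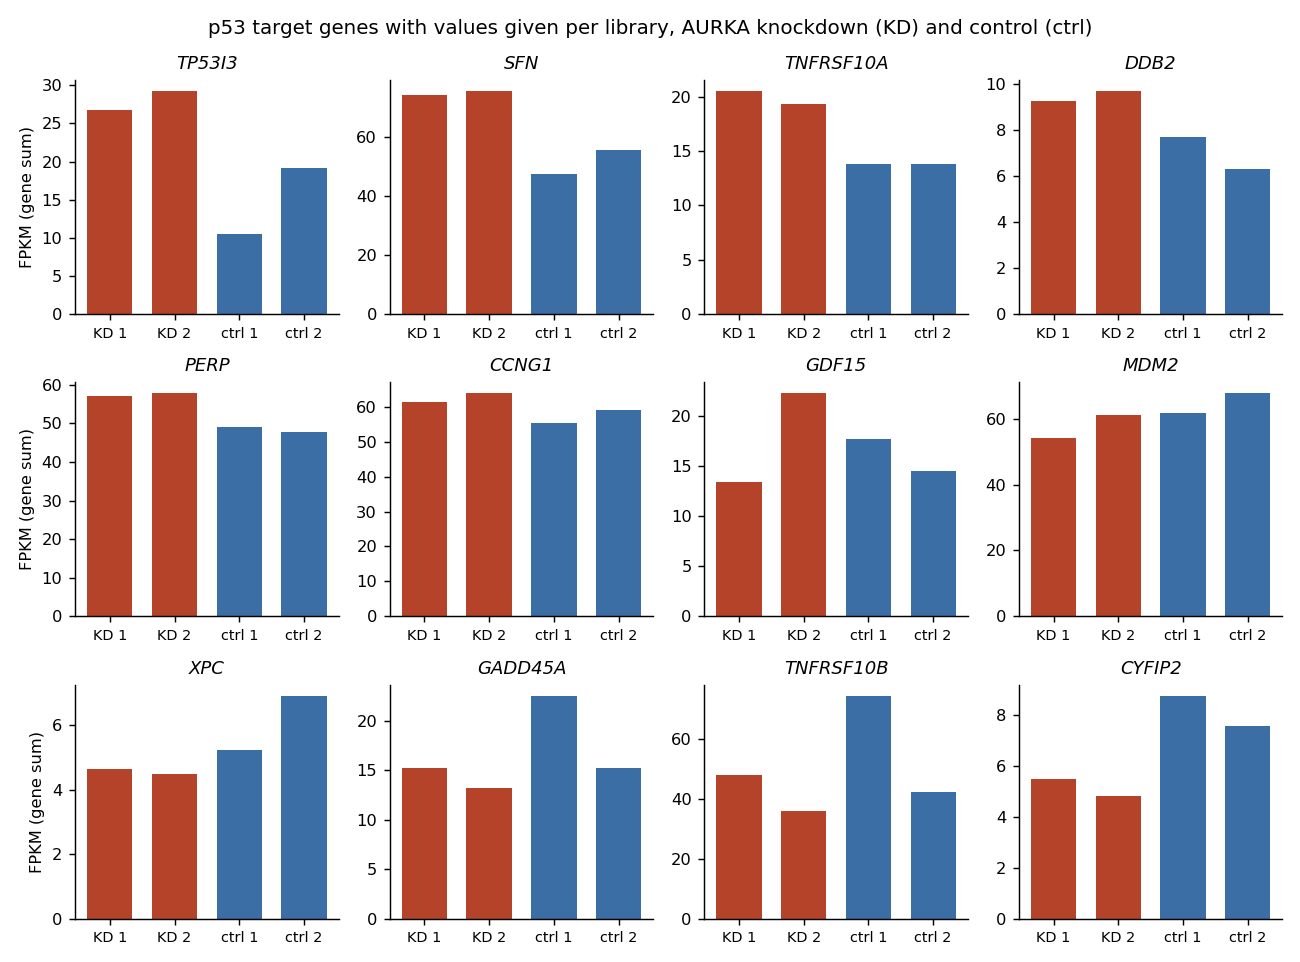
Gene-level FPKM of 12 p53 target genes picked by rule for the size of their differences or for their level, with the knockdown libraries (KD, red) left of the controls (ctrl, blue) and each axis starting at 0. The panels run by mean log2 difference, and TP53I3, SFN and TNFRSF10A show both knockdown bars above both control bars, as do DDB2, PERP and CCNG1.

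Among the feedback genes, none passed in either fit of limma, beside 0% of all genes tested without the run and 3.52% with it. An unadjusted p under 0.05 in limma was seen in 0 of them in either fit, beside 6.40% and 22.1% of all genes tested. All 6 had mean log2 differences under 0.3 in size, as did 81.1% of all genes tested. MDM2, the ligase that marks p53 for degradation, was at 54.0 and 61.0 FPKM in the knockdown, against 61.8 and 67.7 FPKM in the controls. Both knockdown libraries lay below both controls, but by less than 1 FPKM between the nearest values, and the log2 difference was -0.17 ± 0.13 (adjusted p 0.884 in limma, 0.265 with the run as a term; -0.23 without control 1). MDM4, the relative that blocks p53 without degrading it, was at 27.9 and 27.4 FPKM in the knockdown and 34.8 and 22.1 FPKM in the controls. Its 2 replicate numbers went opposite ways, with log2 differences of -0.31 and 0.30, and its mean of -0.01 was 0.31 without control 1. The ratio of MDM2 to MDM4 was 1.94 and 2.23 in the knockdown and 1.78 and 3.06 in the controls, so the control libraries bracketed the knockdown ones.

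CCNG1, which encodes an atypical cyclin that acts on MDM2 through a phosphatase, was among the most abundant of the 33 genes. It was at 61.4 and 63.8 FPKM in the knockdown and 55.3 and 59.0 FPKM in the controls, a log2 difference of 0.13 ± 0.12 with no overlap between the groups (adjusted p 0.907 in limma; 0.08 without control 1). Its relative CCNG2 averaged 21.8 ± 2.53 FPKM in the knockdown and 23.1 ± 4.59 FPKM in the controls (SD, n = 2 each). PPM1D, a phosphatase that switches the p53 response off, averaged 7.71 ± 0.92 FPKM in the knockdown and 7.42 ± 0.93 FPKM in the controls. TP53INP1, a cofactor of p53-driven death and autophagy, averaged 1.88 ± 0.39 FPKM in the knockdown and 1.70 ± 0.61 FPKM in the controls. In these 3 genes the difference was smaller than the spread within a group. Their log2 differences were -0.07, 0.05 and 0.10, and without control 1 they were 0.13 for CCNG2, -0.07 for PPM1D and 0.34 for TP53INP1.

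The death receptor and apoptosis group held 2 of the 3 genes that passed with the run as a term, as well as the genes with the most negative log2 differences. TP53I3, which encodes a quinone oxidoreductase-like enzyme linked to oxidative stress, was at 26.7 and 29.3 FPKM in the knockdown, against 10.5 and 19.1 FPKM in the controls. Both knockdown libraries were above both controls, which themselves differed by more than the knockdown libraries did. The knockdown mean was 1.89-fold higher (28 ± 1.8 against 14.8 ± 6.10 FPKM, SD, n = 2 each). The log2 difference was 0.93 ± 0.28, made of 1.27 in replicate 1 and 0.59 in replicate 2, and it was 0.53 without control 1. In limma the adjusted p was 0.611 without the run and 0.032 with it. The gene (ENSG00000115129) lies on chromosome 2 at 24300303 to 24308085 in GRCh37, a locus it shares with no other gene in the files.

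TNFRSF10A and TNFRSF10B are the 2 receptors through which the ligand TRAIL triggers apoptosis, and they lie near each other on chromosome 8. TNFRSF10A (ENSG00000104689, 23047965 to 23082639, GRCh37) was at 20.6 and 19.3 FPKM in the knockdown, against 13.9 and 13.8 FPKM in the controls. All libraries of a group were close together, and the groups did not overlap. The knockdown mean was 1.44-fold higher, with a log2 difference of 0.50 ± 0.13 that stayed at 0.50 without control 1. Its adjusted p in limma was 0.551 without the run and 0.048 with it.

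TNFRSF10B had a difference of the opposite sign. It was at 47.8 and 35.9 FPKM in the knockdown, against 74.3 and 42.3 FPKM in the controls. Knockdown 1 was above control 2, so the groups overlapped, while within each replicate number the knockdown was lower (log2 differences of -0.63 and -0.23). The mean log2 difference was -0.43 ± 0.29 (adjusted p 0.860 in limma, 0.084 with the run as a term), and it was -0.03 without control 1. The ratio of TNFRSF10A to TNFRSF10B on the FPKM scale was 0.430 and 0.539 in the knockdown, against 0.186 and 0.328 in the controls. Both knockdown ratios were above both control ratios, but they are made of the values just given and are no separate result. Of the other related pairs compared, the ratio of BTG1 to BTG2 did not overlap either. Those of MDM2 to MDM4, GADD45A to GADD45B, PLK2 to PLK3 and CCNG1 to CCNG2 overlapped. The deposited locus of TNFRSF10B also covers PEBP4 and RHOBTB2. TNFRSF10C, named for a decoy TRAIL receptor without a death domain, summed to 0.84 and 0.59 FPKM in the knockdown and 1.43 and 0.76 FPKM in the controls, too low for the filter of 1 FPKM in 2 libraries. Most of that sum (83.7% to 95.6%) was ENST00000397703, which GENCODE 29 lists as a long intergenic RNA under another name. The protein-coding transcript ENST00000356864 was at 0 and 0.026 FPKM in the knockdown and 0 and 0.091 FPKM in the controls, so the sum says little about the receptor.

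CYFIP2, a subunit of the complex that drives actin branching, had the most negative log2 difference of the 33 genes. It was at 5.49 and 4.82 FPKM in the knockdown, against 8.77 and 7.58 FPKM in the controls. Both knockdown libraries were below both controls. The log2 differences were -0.59 in replicate 1 and -0.56 in replicate 2, with a mean of -0.58 ± 0.17 and of -0.48 without control 1. The gene missed the threshold in limma without the run (adjusted p 0.612) and with it (0.057). It passed, as did TNFRSF10B, when the libraries were rescaled to a common median ratio in the fit with the run (adjusted p 0.020 for CYFIP2 and 0.036 for TNFRSF10B in limma). The deposited locus of CYFIP2 on chromosome 5 covers 3 other genes, ADAM19, FNDC9 and NIPAL4.

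The remaining apoptosis genes did not pass in either fit. PERP, a membrane protein of desmosomes that p53 uses in apoptosis, was at 57.1 and 57.8 FPKM in the knockdown and 49.1 and 47.7 FPKM in the controls. The groups did not overlap, and the log2 difference of 0.24 ± 0.11 did not pass (adjusted p 0.797 in limma, 0.148 with the run as a term; 0.26 without control 1). TRIAP1, a small protein that restrains apoptosis, was also without overlap, at 16.5 and 19.5 FPKM in the knockdown and 16.3 and 16.1 FPKM in the controls (log2 0.14, and 0.15 without control 1). FAS, the receptor of Fas ligand, averaged 3.77 ± 0.43 FPKM in the knockdown and 3.73 ± 0.12 FPKM in the controls (SD, n = 2 each), a log2 difference of 0.01 and of 0.03 without control 1. EI24, an endoplasmic reticulum protein, differed more between the replicate numbers than between the groups, at 34.4 and 45.6 FPKM in the knockdown and 29.5 and 44.6 FPKM in the controls (log2 0.12, and -0.17 without control 1). AEN, a nuclease induced in apoptosis, had a log2 difference of -0.17, and PHLDA3, an inhibitor of the kinase Akt, one of -0.23, both with overlapping groups. Without control 1 these differences were -0.03 for AEN and -0.06 for PHLDA3.

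**Figure D2:**
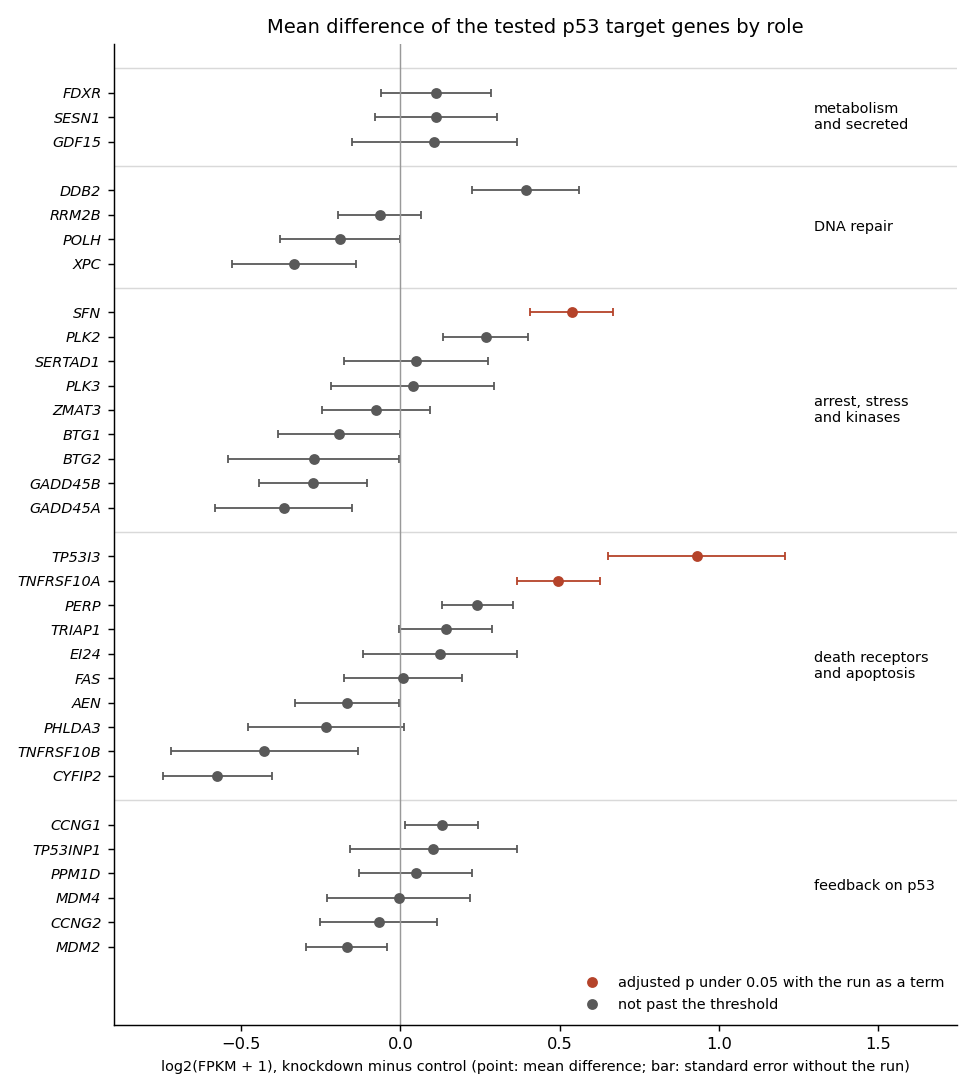
Mean log2(FPKM + 1) difference, knockdown minus control, of the 32 tested p53 targets by role, with points for means and bars for the standard error in limma without the run. The genes in red, TP53I3, TNFRSF10A and SFN, had an adjusted p under 0.05 with the run as a term. The 6 feedback genes all lie within 0.3 of 0, as do 81.1% of all genes tested.

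Of the 9 genes of arrest, stress and kinases, SFN passed with the run as a term and none of the other 8 did. SFN encodes stratifin, a protein that holds the mitotic cyclin-dependent kinase in the cytoplasm and so delays entry into mitosis. It was the most abundant of the 33 genes, at 74.3 and 75.6 FPKM in the knockdown, against 47.3 and 55.6 FPKM in the controls. Both knockdown libraries were well above both controls. The knockdown mean was 1.46-fold higher (75 ± 0.91 against 51.5 ± 5.86 FPKM, SD, n = 2 each). The log2 difference was 0.54 ± 0.13, with 0.64 in replicate 1, 0.44 in replicate 2 and 0.42 without control 1. Its adjusted p in limma was 0.537 without the run and 0.030 with it. SFN (ENSG00000175793) has a single transcript in the files and lies on chromosome 1 at 27189633 to 27190947 in GRCh37.

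In this group 7 of the 9 genes were highest in control 1 (77.8%), beside 33.9% of all genes tested, and control 1 is the library with high NF-kappaB target levels. What that library contributes to these genes was not tested beyond the values without it. GADD45A, a sensor of genotoxic stress that binds mitotic kinase complexes, was at 15.2 and 13.2 FPKM in the knockdown, against 22.5 and 15.3 FPKM in the controls. Knockdown 1 and control 2 were nearly equal, and the log2 difference of -0.37 ± 0.22 (adjusted p 0.851 in limma, 0.137 with the run as a term) was -0.10 without control 1. Its relative GADD45B averaged 17.5 ± 0.65 FPKM in the knockdown and 21.5 ± 3.99 FPKM in the controls, again without overlap, and its log2 difference of -0.28 was -0.09 without control 1.

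The antiproliferative genes BTG1 and BTG2 differed mainly in level, BTG1 being 33.8 times as high as BTG2 on the FPKM scale over all libraries. BTG1 was at 45.5 and 44.7 FPKM in the knockdown and 62.0 and 43.1 FPKM in the controls, so the one library that differed was control 1. Its log2 difference of -0.19 was 0.06 without control 1. BTG2 averaged 1.19 ± 0.09 FPKM in the knockdown and 1.69 ± 0.69 FPKM in the controls, and its log2 difference of -0.27 was -0.01 without control 1. PLK2, a stress-induced kinase of the Polo family, was higher in both knockdown libraries, at 43.4 and 44.9 FPKM against 33.8 and 39.4 FPKM in the controls, with a log2 difference of 0.27 ± 0.13 (adjusted p 0.819 in limma, 0.145 with the run as a term; 0.16 without control 1). PLK3, ZMAT3 (an RNA-binding zinc finger protein) and SERTAD1 (a transcriptional co-regulator) had mean log2 differences from -0.08 to 0.05. Without control 1 they were 0.33 for PLK3, 0.00 for ZMAT3 and 0.30 for SERTAD1.

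The 4 DNA repair genes had none past the threshold in limma. Their unadjusted p in limma was under 0.05 in 0 without the run and 1 with it, beside 6.40% and 22.1% of all genes tested. The 2 that recognise ultraviolet damage for nucleotide excision repair went opposite ways. DDB2, the gene with the paired half-sites printed above, was at 9.26 and 9.71 FPKM in the knockdown, against 7.72 and 6.31 FPKM in the controls. The groups did not overlap, and the log2 difference was 0.39 ± 0.17, with 0.24 in replicate 1, 0.55 in replicate 2 and 0.52 without control 1 (adjusted p 0.779 in limma, 0.148 with the run as a term). XPC was at 4.63 and 4.48 FPKM in the knockdown, against 5.21 and 6.91 FPKM in the controls. Its log2 difference was -0.34 ± 0.19 (adjusted p 0.847 in limma, 0.245 with the run as a term), and it was larger in replicate 2 (-0.53) than in replicate 1 (-0.14). It was -0.51 without control 1 and -0.16 without control 2. POLH, a polymerase that copies past ultraviolet lesions, and RRM2B, a p53-induced subunit of ribonucleotide reductase, had log2 differences of -0.19 and -0.07 with overlapping groups. Without control 1 these were 0.00 for POLH and -0.15 for RRM2B, and without transcripts under 600 bases POLH was at 0.11.

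The 3 genes of metabolism and secreted products had none past the threshold either. An unadjusted p under 0.05 was seen in 0 of them in either fit of limma, beside 6.40% of all genes tested without the run and 22.1% with it. GDF15, a secreted stress cytokine of the TGF-beta superfamily, was at 13.4 and 22.2 FPKM in the knockdown and 17.7 and 14.5 FPKM in the controls. The knockdown libraries were the lowest and the highest of the 4, with log2 differences of -0.38 in replicate 1 and 0.59 in replicate 2, so the mean of 0.11 ± 0.26 describes neither (adjusted p 0.976 in limma, 0.805 with the run as a term). Without control 1 it was 0.24. SESN1, which restrains mTOR signalling, averaged 3.20 ± 0.07 FPKM in the knockdown and 2.89 ± 0.35 FPKM in the controls, and FDXR, a mitochondrial reductase, 6.03 ± 0.65 FPKM in the knockdown and 5.49 ± 0.29 FPKM in the controls (SD, n = 2 each). Both had a log2 difference of 0.11, which without control 1 was 0.02 for SESN1 and 0.16 for FDXR.

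**Figure D3:**
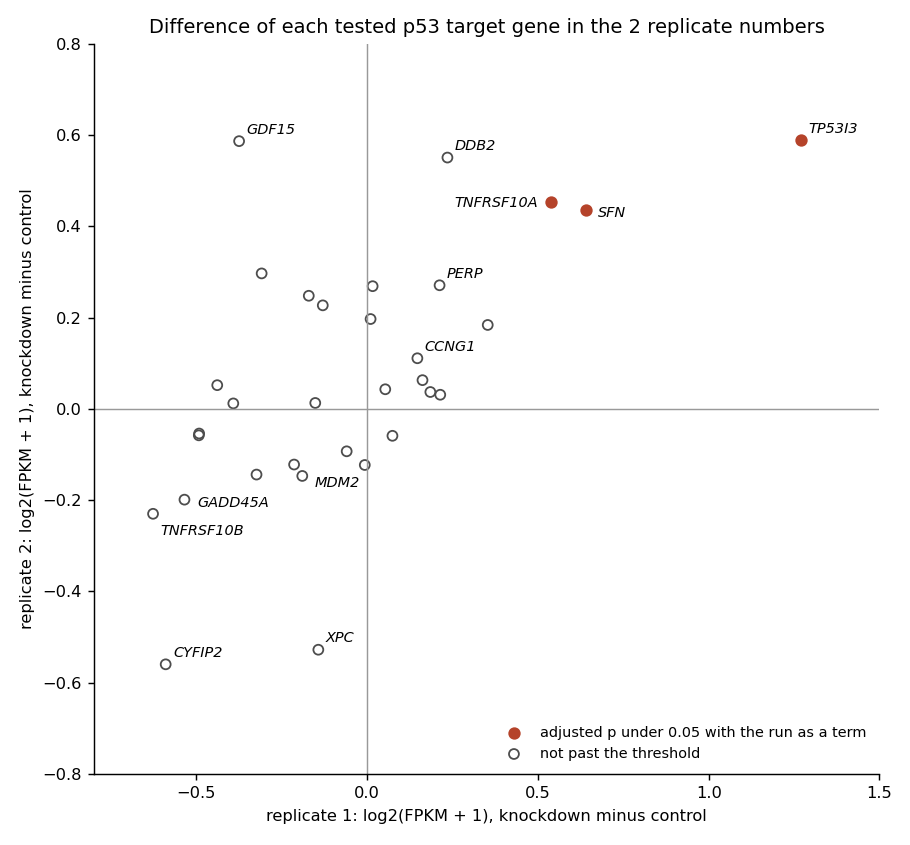
Difference of log2(FPKM + 1), knockdown minus control, of each tested p53 target in replicate 1 (horizontal) and replicate 2 (vertical), with filled points for an adjusted p under 0.05 with the run as a term. TP53I3 lies at 1.27 and 0.59, CYFIP2 at -0.59 and -0.56, and GDF15 at the upper left, where the signs are opposite.

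The transcript values show which isoforms carried these differences, with the limit that reads shared by isoforms were divided by the authors' quantification. TP53I3 had 5 transcripts in the files, and its most abundant one, ENST00000335934, was at 16.6 and 18.3 FPKM in the knockdown, against 5.28 and 10.3 FPKM in the controls. The transcript ENST00000238721 of the same gene differed less, at 4.0 and 4.4 FPKM in the knockdown and 3.28 and 3.60 FPKM in the controls. MDM2 had 22 transcripts, of which 9 reached 1 FPKM in some library. The most abundant, ENST00000350057, was at 18.4 and 23.2 FPKM in the knockdown and 18.6 and 23.0 FPKM in the controls, so its values followed the replicate number. The next, ENST00000462284, was at 18.4 and 19.3 FPKM in the knockdown and 19.5 and 19.6 FPKM in the controls. Less abundant MDM2 transcripts differed in sign. ENST00000393412 was at 5.97 and 3.54 FPKM in the knockdown and 7.89 and 7.5 FPKM in the controls. ENST00000539479 was at 1.94 and 0.945 FPKM in the knockdown and 4.91 and 2.48 FPKM in the controls. ENST00000517852 was higher in the knockdown within each replicate number, at 1.47 and 2.53 FPKM against 0.44 and 2.06 FPKM.

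TNFRSF10B was spread over 2 main transcripts with similar differences. ENST00000276431 was at 29.5 and 20.3 FPKM in the knockdown and 45.3 and 24.2 FPKM in the controls, and ENST00000347739 at 16.8 and 14.6 FPKM in the knockdown and 28.0 and 16.5 FPKM in the controls. In DDB2 the full-length ENST00000256996 was at 6.67 and 6.53 FPKM in the knockdown and 5.61 and 5.49 FPKM in the controls, while the 717-base ENST00000378600 was at 2.40 and 2.34 FPKM in the knockdown and 1.46 and 0.379 FPKM in the controls. The CYFIP2 difference was found in ENST00000442283, at 3.14 and 3.05 FPKM in the knockdown and 4.96 and 4.54 FPKM in the controls. As a fold it was larger in ENST00000347377, at 0.464 and 0.564 FPKM in the knockdown and 3.80 and 1.67 FPKM in the controls. In FPKM it was larger there in replicate 1 but smaller in replicate 2. ENST00000377576 of CYFIP2 had a difference of the opposite sign in replicate 1, at 1.88 and 0.940 FPKM in the knockdown and 0.00126 and 1.37 FPKM in the controls.

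The XPC difference in replicate 2 rested largely on a 557-base transcript, ENST00000511155. That transcript was at 0 and 0.564 FPKM in the knockdown and 0 and 2.09 FPKM in the controls, while the main transcript ENST00000285021 was at 3.97 and 3.78 FPKM in the knockdown and 4.77 and 3.90 FPKM in the controls. With transcripts under 600 bases left out, an alternative chosen after seeing the data, the log2 difference of XPC was -0.19.

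**Figure D4:**
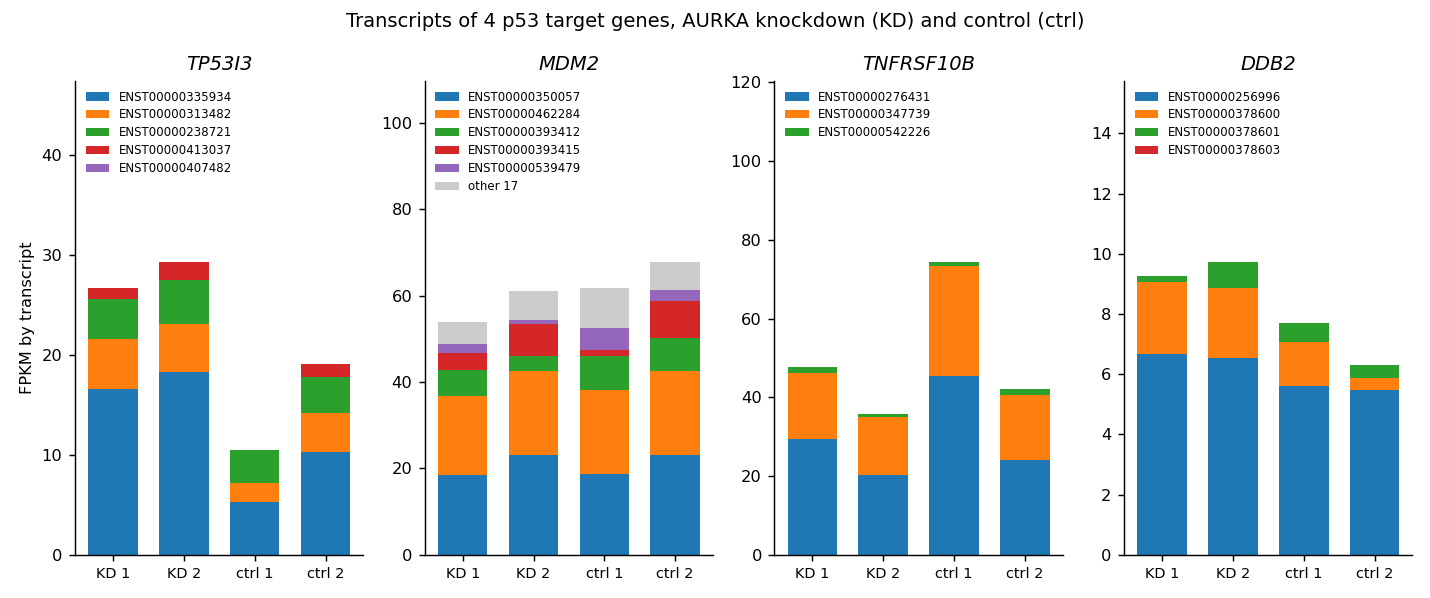
FPKM by transcript of TP53I3, MDM2, TNFRSF10B and DDB2 in the knockdown (KD) and control (ctrl) libraries, stacked to the gene sum, with the 5 most abundant transcripts of a gene coloured. In TP53I3 the lowest segment, ENST00000335934, is 16.6 and 18.3 FPKM in the knockdown and 5.28 and 10.3 FPKM in the controls.

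Of 24 genes of the p53 family and its regulators, 22 were tested and 0 passed in either fit of limma (unadjusted p under 0.05 in 0 without the run and 3 with it, beside 6.40% and 22.1% of all genes tested), and their median log2 difference was -0.01. The largest same-sign differences were those of CREBBP, a histone acetyltransferase and p53 coactivator (13.3 and 15.8 FPKM in the knockdown, 9.37 and 12.9 FPKM in the controls, log2 0.37), and of BRD7, a bromodomain cofactor of p53 (32.3 and 35.4 FPKM in the knockdown, 36.2 and 45.5 FPKM in the controls, log2 -0.26). TP73, a p53 relative that can drive some of the same targets, was at 1.12 and 1.32 FPKM in the knockdown and 1.61 and 1.61 FPKM in the controls. TP63 stayed under 0.3 FPKM, and CDKN2A, whose product blocks MDM2, was listed at 0 in all 4 libraries.

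A second list held 28 further p53 targets, of which 22 were tested and 0 passed in either fit of limma (unadjusted p under 0.05 in 1 without the run and 5 with it, against the same 6.40% and 22.1%), with a median log2 difference of 0.04. CDKN1A, the cell cycle inhibitor that is the best-known p53 target, was at 8.50 and 8.33 FPKM in the knockdown, against 16.4 and 9.64 FPKM in the controls. Its log2 difference of -0.53 ± 0.26 (adjusted p 0.808 in limma, 0.137 with the run as a term) was the largest among the tested genes of that list with the same sign in both replicate numbers, and it was -0.18 without control 1. The pro-apoptotic BCL2 family gene BAX was at 74.8 and 73.0 FPKM in the knockdown and 65.8 and 69.4 FPKM in the controls (log2 0.13, adjusted p 0.906 in limma). BBC3, of the same family, followed the replicate number, at 6.47 and 2.94 FPKM in the knockdown and 6.74 and 2.74 FPKM in the controls. IKBIP, a p53-induced gene, came next in size, at 77.7 and 76.8 FPKM in the knockdown and 58.2 and 61.5 FPKM in the controls (log2 0.36, adjusted p 0.060 in limma with the run as a term).

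p53 also lowers cell cycle genes indirectly, through CDKN1A and the DREAM repressor complex. Of 15 genes of this kind, all tested, 2 passed as lower and 0 as higher with the run as a term, and 0 passed without it. Of all genes tested, 1.92% passed as lower with the run. The unadjusted p was under 0.05 in 2 genes without the run (6.40% of all genes) and in 5 with it (22.1% of all genes) in limma. The median log2 difference was -0.02. One of the 2 was CKS1B, a small subunit of cyclin-dependent kinases. It was at 161.3 and 177.8 FPKM in the knockdown, against 233.7 and 233.1 FPKM in the controls (log2 -0.46, adjusted p 0.034 with the run as a term and 0.537 without it).

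**Figure D5:**
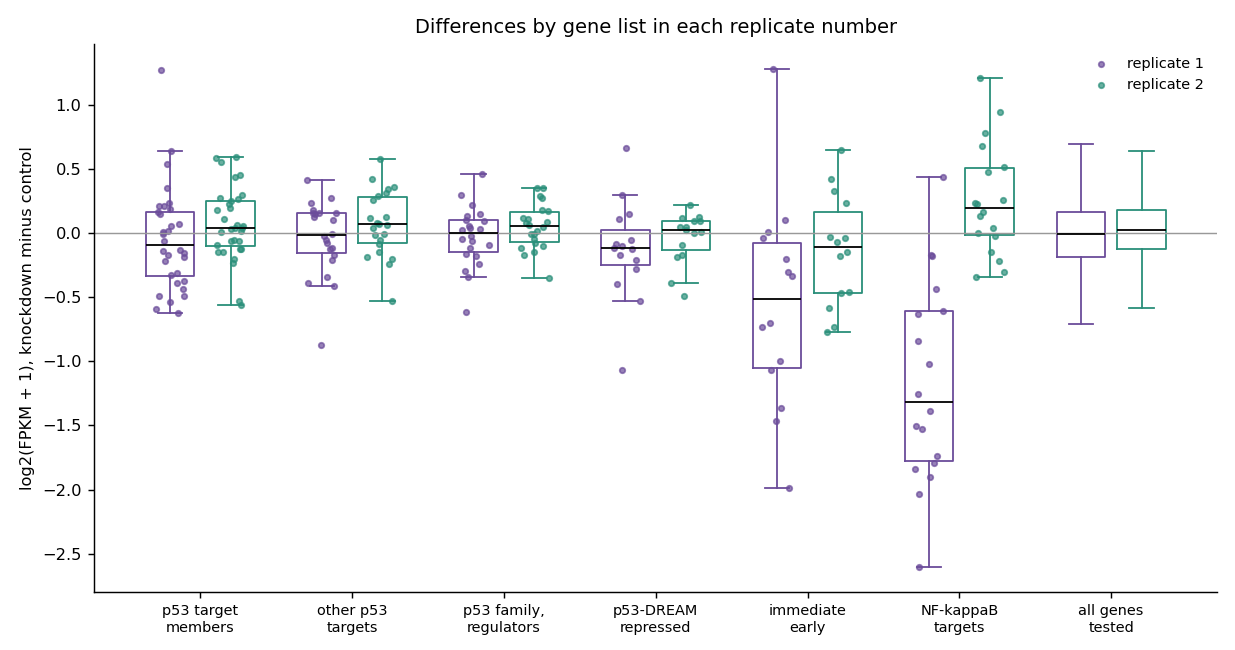
Differences of log2(FPKM + 1), knockdown minus control, in replicate 1 (purple) and replicate 2 (green), for the tested genes of 6 lists and for all 12138 genes; points are genes, boxes run over the quartiles with the median, and whiskers reach the last value within 1.5 box lengths. The p53 targets have medians of -0.10 in replicate 1 and 0.04 in replicate 2, while the NF-kappaB targets have -1.32 and 0.19.

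Seen by replicate number, the p53 targets had a median log2 difference of -0.10 in replicate 1 and 0.04 in replicate 2, beside -0.01 and 0.03 for all genes tested. The NF-kappaB targets had -1.32 in replicate 1 and 0.19 in replicate 2, and 0 of 18 passed in either fit of limma (unadjusted p under 0.05 in 1 without the run and 7 with it, beside 6.40% and 22.1% of all genes tested). Control 1 held the highest value in 14 of the 32 p53 targets (43.8%), beside 33.9% of all genes tested. TNFRSF10B, GADD45A, GADD45B, BTG1, BTG2, AEN and CYFIP2 were among these 14. TP53I3, SFN and TNFRSF10A were not, and each was higher in the knockdown within both replicate numbers. Both statements follow from their knockdown values lying above both controls, so they add nothing to the calls of these genes.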

How the data were processed

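RNA sequencing of 4 MDA-MB-231 libraries was analysed, 2 with AURKA knockdown and 2 controls. The design text calls them biological replicates, but nothing says that the cultures were separate, so p-values measure only the spread between these samples. Each deposited table holds 81493 transcripts of one library. Their values were taken to be FPKM as deposited by the authors, that is, fragments already scaled by transcript length and library depth; this was read from the form of the values, since no header names a unit. Tools listed in the submitters' processing notes are bcl2fastq 2.19 and HTSeq 0.8.0, with hg38 as the build. The loci in the files are GRCh37, since one on chromosome 4 ends at 191013719. Which program quantified the reads is not given in the sources. A strand setting is not stated, so reads of antisense or overlapping genes are not separable.

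Transcripts were joined by ID (81412 in all 4 tables, 81 only in the tables of each replicate number) and summed to genes by gene ID. Genes that reached 1 FPKM in 2 or more libraries were tested with limma-trend (limma 3.58.1, R 4.3.3) on log2(FPKM + 1), two-sided, with Benjamini-Hochberg adjustment over all genes tested and a threshold of 0.05. Fold changes on that scale understate changes of low genes. The fit without the replicate number is the main one. The fit with it is printed as "with the run as a term", because the number was read as a quantification run from shared transcript sets and row order. Deviations of same-numbered libraries from their group means correlated at 0.646 across genes. Whether the number also marks a culture or day is not stated. Loci are 1-based. The relative depth of a pair was read from genes with 1 transcript, as the constant at which most ratios (58.1% of 606 genes in replicate 1, 50.4% of 589 in replicate 2) were those of small whole numbers. The fits were also run on simulated data with known differences added and with spreads drawn from the fit with the run as a term. The outcome is not reported here, so no call rests on it.

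The members and the gene lists were chosen with earlier results of these data known. By the rule for naming, a p53 target has its value given in every library where it passed in either fit, had a mean log2 difference of at least 0.3 with one sign in both replicate numbers, had opposite differences each over 0.3, or was among the 5 most abundant. Some others are given too, chosen after their values were seen. In the other lists, the genes that passed in either fit and the 2 with the largest same-sign difference are named, as are CDKN1A, BAX and BBC3; some genes that the rule covers are not reported here. Alternatives were the replicate block, 2 rescalings, a pseudocount of 0.1, other filters, common transcripts only, and leaving out each library.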

Additional observations from a re-analysis of the deposited data

How the results depend on the processing

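The count of p53 targets that passed was 0 in the fit without the run and 0 under every alternative without the run, leaving out each library included. With the replicate block it was 3. It was 5 with the block and either rescaling, 3 with the block and a filter at 5 FPKM, and 1 (SFN) with the block and a pseudocount of 0.1. It was 0 with the block and no filter, where 17676 genes were tested and 0 passed. With the block and without transcripts under 600 bases, an alternative chosen after seeing the data, it was 5. The 2 genes added each time were CYFIP2 and TNFRSF10B, both lower.

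Over all genes the count was 0 without the block, 427 with the block, 3 after scaling by median of ratios, 2 after scaling by the upper quartile and 1 with a filter at 5. With the block it was 837 under median-of-ratios scaling, 866 under upper-quartile scaling, 289 with a pseudocount of 0.1, 443 with a filter at 5 and 872 without transcripts under 600 bases. Leaving out 1 library gave 6 to 15. The cause of these shifts was not tested. Scaling moved the median of all genes by under 0.1 on the log2 scale.

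Leaving out 1 library moved the median log2 difference of the p53 targets between -0.116 (without control 2) and 0.049 (without control 1). AURKA passed with the block at -2.22, and with the block and a filter at 5 at -2.22. It passed with and without the block at -2.24 under median-of-ratios scaling and at -2.23 under upper-quartile scaling. With the block it also passed at -2.27 under a pseudocount of 0.1 and at -2.22 with no short transcripts. It did not pass with the block and no filter (adjusted p 0.0934 in limma). Without the block it did not pass in the main fit or with a pseudocount of 0.1, no filter or a filter at 5. The same held without the block for common transcripts only and for no short transcripts. Without 1 library its log2 difference was -2.38 to -2.06. Of 216 values of the 12 p53 targets chosen by the rule for naming under 18 alternatives, 2 reversed, both GDF15, which ran from -0.240 without knockdown 2, through -0.030 without control 2, to 0.451 without knockdown 1. A further 22 passed that had not passed without the run, and 192 kept their direction and side of the threshold. Over all 32 tested p53 targets, 6 changed sign without control 1 (BTG1, CCNG2, EI24, MDM4, PPM1D and ZMAT3), 6 without control 2, 4 without knockdown 1, 6 without knockdown 2, 3 without transcripts under 600 bases (MDM4, POLH and RRM2B) and 1 with median-of-ratios scaling (FAS). The labels do not pair the libraries, and 2 pairs are too few to show a pairing. Low genes such as BTG2 and TNFRSF10C, near 1 FPKM, are the least precise.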

Other observations

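Of the other stress lists, the immediate early genes, which cells induce within minutes of a stimulus, held 5 that passed, beside 3.52% of all genes tested (1.60% higher and 1.92% lower). Of 14 tested, EGR1, FOS, FOSL1 and IER3 were lower in the knockdown and KLF2 was higher in limma with the run as a term, and none passed without it. FOSL1, a subunit of the transcription factor AP-1, was at 127.3 and 129.8 FPKM in the knockdown, against 207.5 and 216.0 FPKM in the controls (log2 -0.72, adjusted p 0.00848 with the run as a term). KLF2, a zinc finger transcription factor, was at 67.2 and 35.6 FPKM in the knockdown, against 27.1 and 22.3 FPKM in the controls (log2 0.97, adjusted p 0.024). EGR1, FOS and IER3, further rapidly induced genes, had log2 differences of -0.75, -0.83 and -0.73, each with overlapping groups. EGR1 was at 21.47 and 11.06 FPKM in the knockdown and 36.35 and 19.56 FPKM in the controls. FOS was at 1.971 and 6.206 FPKM in the knockdown and 5.226 and 9.788 FPKM in the controls. IER3 was at 167.8 and 84.52 FPKM in the knockdown and 335.9 and 117.3 FPKM in the controls. EGR1 and IER3 were highest in control 1. DUSP1, a phosphatase that turns off MAP kinases, had the largest difference of the list, at 27.6 and 28.4 FPKM in the knockdown and 112.7 and 29.9 FPKM in the controls, and did not pass (adjusted p 0.173 with the run as a term). The list had a median log2 difference of -0.52, with -0.52 in replicate 1 and -0.11 in replicate 2. Of 12 genes of the ATF4 stress response, 0 passed in either fit of limma (unadjusted p under 0.05 in 0 without the run and 2 with it, beside 6.40% and 22.1% of all genes tested), and their median was 0.12. ATF4 itself was at 223.0 and 223.2 FPKM in the knockdown and 143.7 and 203.2 FPKM in the controls, and TRIB3, a pseudokinase it induces, at 9.35 and 6.88 FPKM in the knockdown and 6.66 and 6.09 FPKM in the controls.

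Short annotated transcripts of 2 DNA repair genes varied between libraries while their gene sums did not pass. The 201-base RRM2B transcript ENST00000519962 was at 8.47 FPKM in control 2 and listed at 0 in the other libraries. The 331-base POLH transcript ENST00000443535 was at 0.650 and 1.11 FPKM in the knockdown and 3.32 and 2.01 FPKM in the controls.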
